A study of Mus musculus with 94 samples.

Results

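The comparison concerned the macrophage segments of uninjured mouse kidneys and of kidneys taken 7 days after ischemia-reperfusion injury (IRI), in which the blood supply of 1 kidney is interrupted and then restored. Its 12 segments, 6 per group, were those whose titles carry IBA1, the macrophage stain used to draw them, together with the code for vehicle on day 7 or for control. They were taken from 46 macrophage segments and 94 segments in all, and no 2 of the 12 held identical counts. The study as a whole asked how entospletinib, an inhibitor of the kinase SYK, alters injury and repair over 3 time points. All mice were C57BL/6 males, and sections were formalin-fixed and paraffin-embedded. The day 7 group had received vehicle (DMSO), without entospletinib, ahead of unilateral IRI, and the study describes repeated injections after it, daily during the first days. The control kidneys were not injured. The labels describe them as contralateral kidneys, and the methods of the study as contralateral kidneys or kidneys of healthy mice, so a control kidney may have shared an animal with an injured one. Each group had 2 sections, told apart by a prefix in the sample titles, and each section gave 2 regions in the cortex and 1 in the medulla. The design states 2 mice per condition, but the labels do not say that a prefix stands for a mouse, so p-values measure the spread between sections. In the edgeR fits that spread was estimated over all 7 groups of the series, with 2 sections each, and not from the 2 compared groups alone.

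Resident macrophages lie between the tubules of the healthy kidney, and after IRI they are joined by monocytes that enter from the blood and turn into macrophages. These cells engulf dead tubular cells and release cytokines early on, and later they take part both in repair of the epithelium and in scarring. An IBA1 segment is the stained area within a region and not a sorted cell, so transcripts of touching cells, above all tubular cells, can be collected with those of macrophages. Counts are listed under probe identifiers that are not paired with gene names in the sources used here, and the labelled cell type could therefore not be checked against its defining markers. Probe groups were instead described by the compartment in which they were higher in other, injured sections of the series.

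Day 7 segments yielded many more counts than control segments. A count is 1 unique molecular identifier (UMI), which stands for 1 barcode released from the tissue. In control section 1, the 2 cortical segments held 26729 and 16693 counts and the medullary segment 116031. In control section 2, they held 120821 and 31069 in the cortex and 146173 in the medulla. In day 7 section 1, the corresponding totals were 328462, 337497, and 556429, and in day 7 section 2 they were 460556, 582121, and 771296. Every day 7 segment was above every control segment. The totals per section were 159453 and 298063 in controls and 1222388 and 1813973 on day 7, so that the mean was 6.64 times higher. With 2 sections per group, an exact two-sided permutation test cannot give a p below 0.333, which is the value found. Raw reads ranged from 68738 to 670587 in control segments and from 1417228 to 3106351 in day 7 segments. More stained cells, larger drawn areas, more RNA per cell, and more sequencing reads cannot be told apart in such totals.

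The number of probes with at least 1 count ranged from 8231 to 19351 in control segments and from 20110 to 20173 on day 7, of 20175 listed. The groups did not overlap. When every segment was thinned to 16693 counts, the total of the lowest, the ranges became 8005 to 9078 and 7986 to 8938, which overlapped throughout. The most abundant probe took 2.62% to 4.52% of the counts of control segments and 2.88% to 3.98% of those of day 7 segments, and its log2 fold change was -0.21 (SE 0.30, adjusted p = 0.884, edgeR quasi-likelihood test). Medullary regions supplied 72.8% and 49.0% of the counts of the control sections and 45.5% and 42.5% of those of the day 7 sections, so cortex and medulla are also reported apart.

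**Figure D1:**
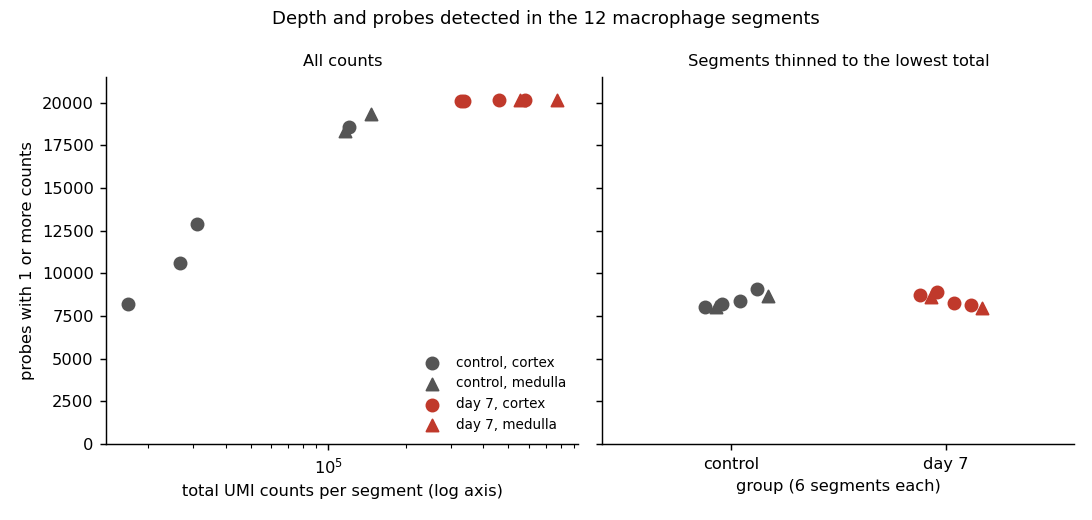
Probes with 1 or more counts (y axis) in each of the 12 macrophage segments, against the total of UMI counts on a log axis (left) and by group after thinning to 16693 counts (right). Gray is control, red is day 7, circles are cortex, and triangles are medulla. All 6 day 7 segments lie at or above 328462 counts and 20110 probes at left, and the groups overlap at right.

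For the test, the regions of a section were added up and the sums scaled by the upper quartile, over 20166 probes with at least 20 counts in the 12 segments. Between day 7 and control, 648 probes (3.21% of those tested) passed an adjusted p of 0.05 and an absolute log2 fold change of 1 by edgeR's quasi-likelihood F test, adjusted after Benjamini and Hochberg. Of these, 259 were higher on day 7 (1.28%) and 389 were lower (1.93%). The median log2 fold change was 1.66 among the higher probes (quartiles 1.37 and 2.00) and -1.38 among the lower probes (quartiles -1.59 and -1.21), beside -0.03 over all probes tested. Absolute log2 fold changes above 2 were found for 65 higher and 40 lower probes. All fold changes are of shares of the counts of a section. Without scaling, 385 of the 389 lower probes had more counts in the deeper day 7 sections, as did 20147 of all 20166 probes.

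The count of calls rested on all 4 sections. It was 195 and 371 without control section 1 or 2, and 220 and 382 without day 7 section 1 or 2. Without day 7 section 1, higher probes were the majority, with 130 higher and 90 lower, and when each segment was given equal weight in limma the split was 534 higher and 176 lower. With each region taken as a replicate in DESeq2, 482 were higher and 313 lower.

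Higher and lower probes differed in how many control counts lay behind them. The 259 higher probes had a median of 16 counts over both control sections and 364 over both day 7 sections. Of these, 73 had 10 or fewer control counts, 15 had 3 or fewer, and 4 had none in at least 1 of the control sections. A single probe of these 4 had no count in either control section. Against a floor of 3 counts over the control group, its 44 day 7 counts were at least 2.21-fold higher, and with that probe at its bound the median of the higher probes was 1.64. The 389 lower probes had a median of 78 control counts and none had fewer than 15. When all probes were ranked by their level and split into 4 equal bins, the highest bin held 197 of the higher and 358 of the lower probes, and the lowest bin held 2 and 0. Few differences of low probes were detectable at this depth.

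**Figure D2:**
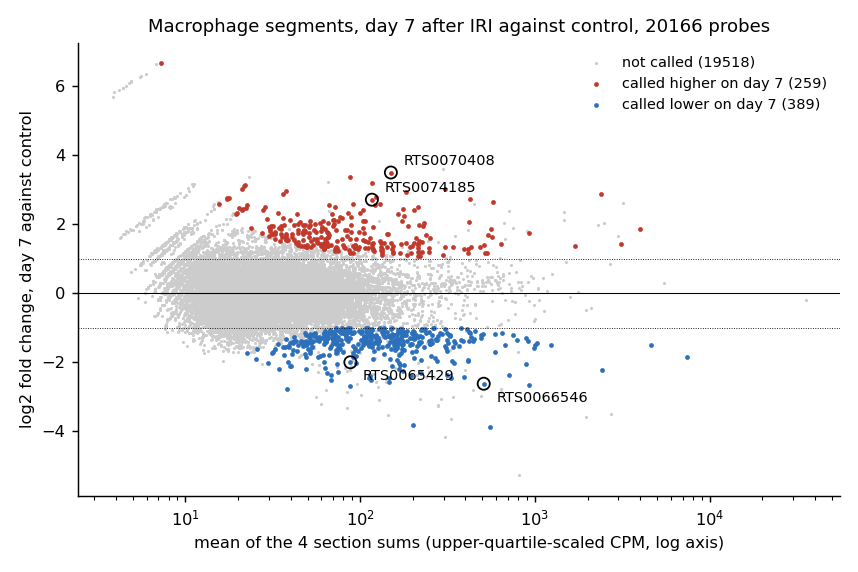
Log2 fold change of each of 20166 probes between day 7 and control macrophage sections (y axis) against its mean level over the 4 section sums (x axis, upper-quartile-scaled CPM, log axis). Red points are the 259 probes called higher and blue points the 389 called lower, dotted lines mark the threshold of 1, and rings mark the 4 named probes. The band of points at upper left holds probes without control counts, whose fitted fold changes are not bounds.

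The called probes differed in single segments as well as in sums. In CPM, counts scaled to the same total in each segment, the 6 day 7 segments all exceeded the 6 control segments for 175 of the 259 higher probes, or 67.6%, where 2.45% of all probes did so. All 6 lay below the controls for 151 of the 389 lower probes, or 38.8%, beside 1.11% of all probes. These segments entered the test, so the shares describe the calls and do not test them. Between sections, the log2 counts of the 1022 most abundant probes were compared after thinning each section to 159453 counts. The median absolute difference was 0.38 between the control sections and 0.31 between the day 7 sections, and 0.60 to 0.76 between a day 7 and a control section. Differences above 2-fold were found for 13.8% and 4.70% of the probes within groups and for 27.4% to 40.2% between groups. For these abundant probes, the groups therefore differed by more than the sections of either group did.

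The 4 probes named here, 2 rising and 2 falling, had the smallest p among those that did not overlap between sections and moved the same way in cortex and medulla. RTS0070408 rose most clearly. Its CPM ranged from 0 to 74.8 in control segments (median 22.7, n = 6) and from 143 to 368 on day 7 (median 263, n = 6), without overlap. The control values rested on 11 counts, with none in 2 of the 6 segments, whereas day 7 segments held 47 to 269 counts each. The 2 medullary segments were the highest of day 7, at 368 and 349 CPM. Its log2 fold change was 3.49 (SE 0.43, adjusted p = 2.21e-06, edgeR), or 11.3-fold.

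RTS0074185 was the other probe that rose. It ranged from 0 to 59.9 CPM in control segments (median 30.2) and from 160 to 228 CPM on day 7 (median 215), again without overlap. Control segments held 14 of its counts in all and day 7 segments 638. Cortex and medulla were close to each other on day 7, and the lowest value was that of 1 cortical segment of section 1. The log2 fold change was 2.71 (SE 0.38, adjusted p = 1.96e-05, edgeR).

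RTS0066546 fell from the highest level of the 4. Control segments ranged from 659 to 1076 CPM (median 815, n = 6) and day 7 segments from 77.3 to 271 CPM (median 123, n = 6). All day 7 segments were below all control segments, the medullary ones at 77.3 and 80.4 CPM and the cortical ones at 122 to 271 CPM. The log2 fold change was -2.63 (SE 0.33, adjusted p = 2.21e-06, edgeR). RTS0065429 fell from 64.4 to 187 CPM in controls (median 135) to 18.0 to 57.8 CPM on day 7 (median 42.1), or 4.01-fold in the fit (SE 0.28 on the log2 scale, adjusted p = 1.93e-05, edgeR). Its groups did not overlap, but the lowest control segment, at 64.4 CPM, held only 2 counts and lay close to the highest day 7 segment.

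**Figure D3:**
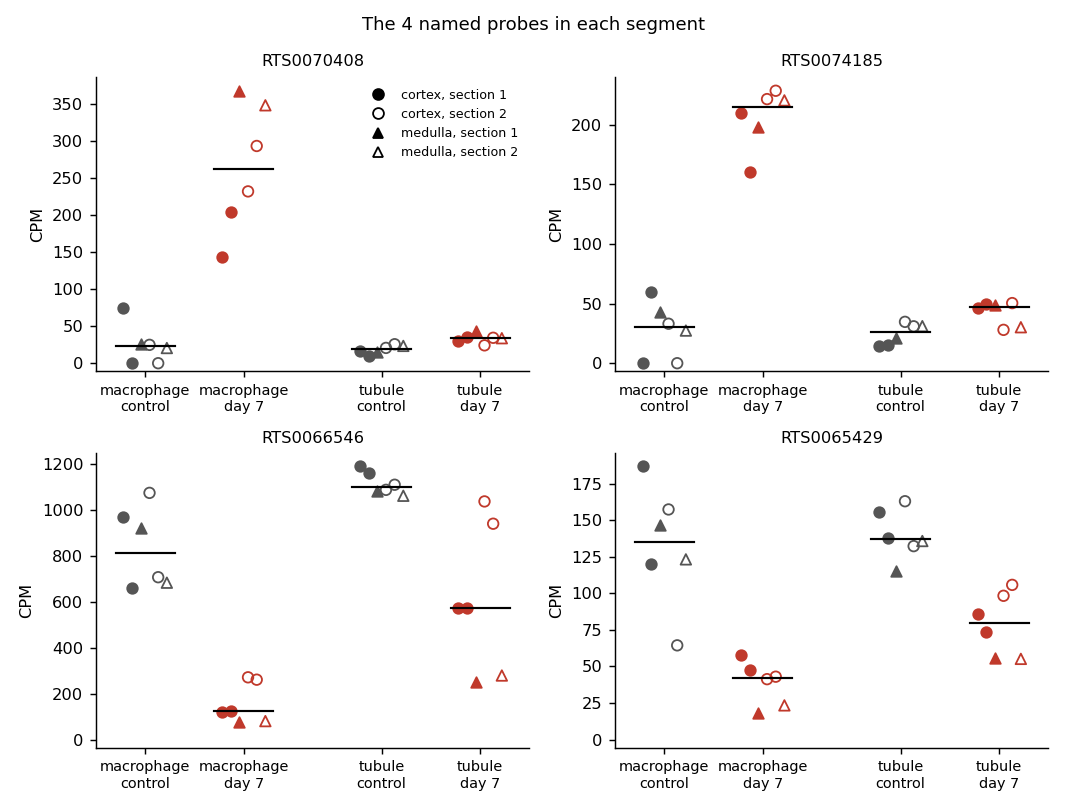
CPM (y axis) of the 4 named probes in each segment, for macrophage and tubular segments of the control and day 7 groups (6 segments each). Circles are cortex, triangles medulla, filled symbols section 1, open symbols section 2, and bars are medians. In macrophage segments the groups are apart for each of the 4 probes, whereas RTS0066546 reaches 1039 CPM in day 7 tubules.

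The change was measured in both regions of the kidney. All 259 higher probes were higher in cortical sums alone and in medullary sums alone, and 386 of the 389 lower probes were lower in both, whereas 58.2% of all probes had the same sign in both regions. The median log2 fold change of the higher probes was 1.59 in cortex and 1.70 in medulla, and that of the lower probes -1.37 and -1.52. These probes were called on sums of the same regions, which fixes part of this likeness. Tested apart, 343 probes were called in cortex (1.70%) and 440 in medulla (2.18%). When the regional effects were compared within sections, 3 probes were called as different (0.0149%), all with a lower effect in the medulla (log2 differences of -2.69 to -2.44). None of the 3 was among the 648, and 846 probes had an unadjusted p under 0.05. The larger fall of RTS0066546 in the medulla (-3.39, and -2.31 in cortex) had an unadjusted p of 0.0105 and an adjusted p of 1 in this edgeR test. Without control section 2, the test called 1 probe and without day 7 section 1 it called 2, in each case higher in the medulla and none of the 3, and without control section 1 or day 7 section 2 it called 0, with 878 and 768 probes at an unadjusted p under 0.05.

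Tubular segments were drawn in the same regions, by staining for pan-cytokeratin with or without CD10. Their sections held from 9404235 to 17407808 counts in the 2 groups, and on day 7 there were 173 probes with a higher call (0.858%) and 40 with a lower call (0.198%). Of the 259 probes that rose in macrophages, 71 were also called higher in tubules, and the median tubular log2 fold change was 0.70. Of the 389 that fell, 27 were called lower in tubules, with a median of -0.88. The tubular change had the same sign for 249 and 386 of these probes, beside 63.5% of all probes.

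The difference between the macrophage and tubular effects was then tested within sections. It was called for 15 probes (0.0744%), 9 with a higher and 6 with a lower effect in macrophages, and 1468 probes had an unadjusted p under 0.05. Of the 15 probes, 8 had been called higher in macrophages and 3 lower. The count was 6 and 10 without control section 1 or 2, with 4 and 5 of the 15 among them, and 11 and 8 without day 7 section 1 or 2, with 10 and 8 of the 15. RTS0070408 rose by 0.71 in tubules on the log2 scale (SE 0.19, adjusted p = 0.0914), and the effect in macrophages exceeded the tubular effect by 2.86 (SE 0.45, adjusted p = 0.00172, edgeR). For RTS0074185 the tubular change was 0.62 and the difference 2.18 (SE 0.36, adjusted p = 0.00172, edgeR). For RTS0066546 the tubular change was -1.01 and the difference -1.64 (SE 0.31, adjusted p = 0.00562, edgeR). For RTS0065429 the difference of -1.11 did not pass the threshold (SE 0.27, adjusted p = 0.0984, edgeR). The 4 probes had been named for their change in macrophages, and that choice favors a larger effect there than in tubules.

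In controls the compartments were closer to each other for the 4 named probes than on day 7, as section levels show. RTS0066546 had 874 ± 40.7 CPM in macrophage sections and 1108 ± 30.0 CPM in tubular sections (SD, n = 2), and RTS0065429 had 141 ± 13.9 and 137 ± 8.72 CPM. RTS0070408 had 25.7 ± 7.94 and 18.6 ± 6.64 CPM, and RTS0074185 had 32.2 ± 7.63 and 25.1 ± 9.85 CPM. On day 7 the gaps were wider, which follows in part from naming these probes for their change in macrophage sections. RTS0066546 then had 145 ± 59.8 CPM in macrophages and 609 ± 225 CPM in tubules, and RTS0070408 had 282 ± 27.5 and 33.9 ± 3.76 CPM. RTS0074185 had 207 ± 23.1 and 42.9 ± 7.15 CPM, and RTS0065429 had 35.5 ± 1.86 and 79.8 ± 11.9 CPM.

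The changed probes were also described by compartment. Macrophage and tubular sums were compared in the 10 sections outside the 2 groups, which hold none of the 12 segments. All 10 came from injured kidneys, so a probe that injury changed more in macrophages than in tubules could enter a list through that change, and the split does not show where a probe is expressed in the uninjured kidney. There 346 probes were called higher in macrophages (1.72%), and they are termed macrophage-high. Another 101 were called higher in tubules (0.501%) and are termed tubule-high. The lists carry no gene names and do not prove a cell of origin. Of the 346 macrophage-high probes, 113 were called higher and 1 was called lower on day 7, and 328 had a positive fold change. Their median log2 fold change was 1.14, beside -0.03 over all probes, and it ranged from 0.86 to 1.68 over the pairs of 1 day 7 and 1 control section. Of the 101 tubule-high probes, 40 were called lower and 0 higher, 96 had a negative fold change, and the median was -1.49 (range over pairs of sections -2.22 to -0.70).

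Read the other way, 113 of the 259 higher probes (43.6%) were macrophage-high, and 40 of the 389 lower probes (10.3%) were tubule-high. Without any threshold, 247 of the higher probes were on the macrophage side in those 10 sections and 379 of the lower probes on the tubular side, whereas 57.5% of all probes were on the tubular side. No uninjured section entered this split, so these shares describe the injured kidney and are no independent evidence of the compartment of a probe.

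The lists also changed as shares of all counts. Macrophage-high probes made up 2.60% to 4.52% of the counts of control macrophage segments (median 3.80%) and 7.20% to 8.74% on day 7 (median 8.07%). Their section values were 3.82% and 3.52% in controls and 7.95% and 8.32% on day 7. Tubule-high probes made up 1.39% to 4.92% of the counts in controls (median 2.47%) and 0.598% to 1.35% on day 7 (median 0.974%). The groups did not overlap for either list, although the lowest control value of the tubule-high share, 1.39%, was close to the highest day 7 value, 1.35%. In sections, the tubule-high share was 4.28% and 2.02% in controls and 0.681% and 1.24% on day 7. The smallest p of an exact permutation test is again 0.333, and both shares reached it.

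Tubular segments of the same regions moved in part with them. The macrophage-high share there was 0.797% to 1.02% in controls and 1.40% to 2.55% on day 7, without overlap. The tubule-high share was 3.16% to 7.79% in controls and 1.86% to 4.97% on day 7, which overlapped, and the section values were 5.97% and 3.25% against 2.06% and 4.51%. The share of tubule-high probes in IBA1 segments thus moved with the group, and its part in the other fold changes was not tested.

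**Figure D4:**
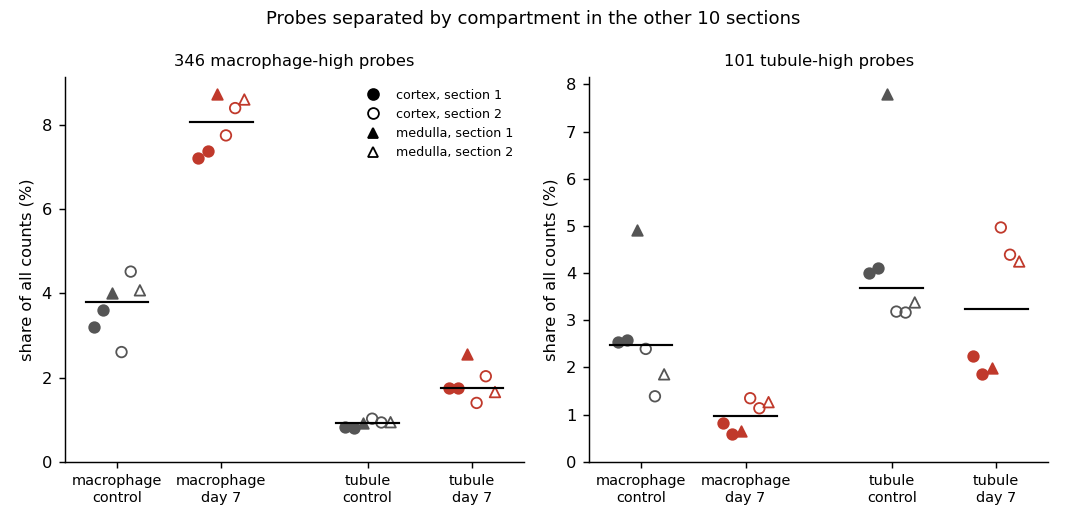
Share of all counts (y axis, %) taken by 346 macrophage-high probes (left) and 101 tubule-high probes (right), in each macrophage and tubular segment of the control and day 7 groups. Symbols are as for the named probes, and bars are medians. In macrophage segments the left share was 2.60% to 4.52% in controls and 7.20% to 8.74% on day 7, and the right share fell from a median of 2.47% to 0.974%.

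Day 7 was also set against the other vehicle groups. Compared with day 1 without the control sections, 170 probes were higher on day 7 (0.843%) and 109 lower (0.541%). Between day 14 and day 7, 32 were higher on day 14 (0.159%) and 4 lower (0.0198%). RTS0070408 rose from day 1 to day 7 by 1.55 on the log2 scale (adjusted p = 0.00179, edgeR) and RTS0074185 by 1.95 (adjusted p = 3.32e-05, edgeR). The changes of RTS0066546 (-0.67, adjusted p = 0.457) and RTS0065429 (-0.10, adjusted p = 0.977) over the same interval did not pass edgeR's test. No named probe passed between day 7 and day 14, where RTS0070408 came nearest (1.15, adjusted p = 0.0633, edgeR). Both counts depended on single sections. Day 7 against day 1 gave 123 and 109 calls without day 7 section 1 or 2 and 97 without day 1 section 2, and day 14 against day 7 gave 9 and 10 without day 7 section 1 or 2 and 15 without day 14 section 2.

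The day 7 calls were also followed through the other groups, each compared with the same 2 control sections, so that these values are not independent. The 259 higher probes had median log2 fold changes of 0.86 on day 1, 1.66 on day 7, and 1.94 on day 14 with vehicle, and of 0.21 on day 7 with entospletinib. The 389 lower probes had medians of -0.80, -1.38, and -1.64 with vehicle and of -0.11 on day 7 with entospletinib. The day 7 values are those that chose the probes. Macrophage-high probes, which were not chosen on these controls, had medians of 0.54, 1.14, and 1.49 with vehicle and -0.20 with entospletinib, and tubule-high probes -1.06, -1.49, -2.26, and 0.13. The day 1, day 14, and entospletinib sections did choose these lists, and their values are given as a description.

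For single probes, RTS0066546 had 221 ± 21.6 CPM on day 1, 145 ± 59.8 on day 7, and 100 ± 26.2 on day 14 with vehicle, and 1067 ± 90.6 on day 7 with entospletinib, beside 874 ± 40.7 in controls (SD, n = 2). RTS0070408 had 90.6 ± 9.47, 282 ± 27.5, and 604 ± 116 CPM with vehicle and 54.0 ± 31.8 on day 7 with entospletinib, beside 25.7 ± 7.94 in controls. RTS0066546 was thus already far below control on day 1, and RTS0070408 stood higher at each later day. RTS0074185 had 50.3 ± 5.55, 207 ± 23.1, and 349 ± 51.3 CPM with vehicle and 59.5 ± 24.0 on day 7 with entospletinib, beside 32.2 ± 7.63 in controls. RTS0065429 had 35.7 ± 0.573, 35.5 ± 1.86, and 27.9 ± 1.79 CPM with vehicle and 78.8 ± 8.78 on day 7 with entospletinib, beside 141 ± 13.9 in controls. The entospletinib sections of day 7 were above the controls for RTS0066546 and between the vehicle and control sections for RTS0065429. Neither difference from control passed edgeR's test (log2 fold changes of 0.28 and -0.84). The day 7 entospletinib and vehicle sections did not overlap for any of the 4 probes, which had been named on the same vehicle sections. That choice favors such a separation, and the difference between these 2 groups was not tested. The share of all probes without overlap was not counted for this pair of groups. Between day 7 vehicle and control sections it was 43.5%. Entospletinib section 2 of day 7 held only 9 counts of RTS0070408, 9 of RTS0074185, 10 of RTS0065429, and 118 of RTS0066546.

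**Figure D5:**
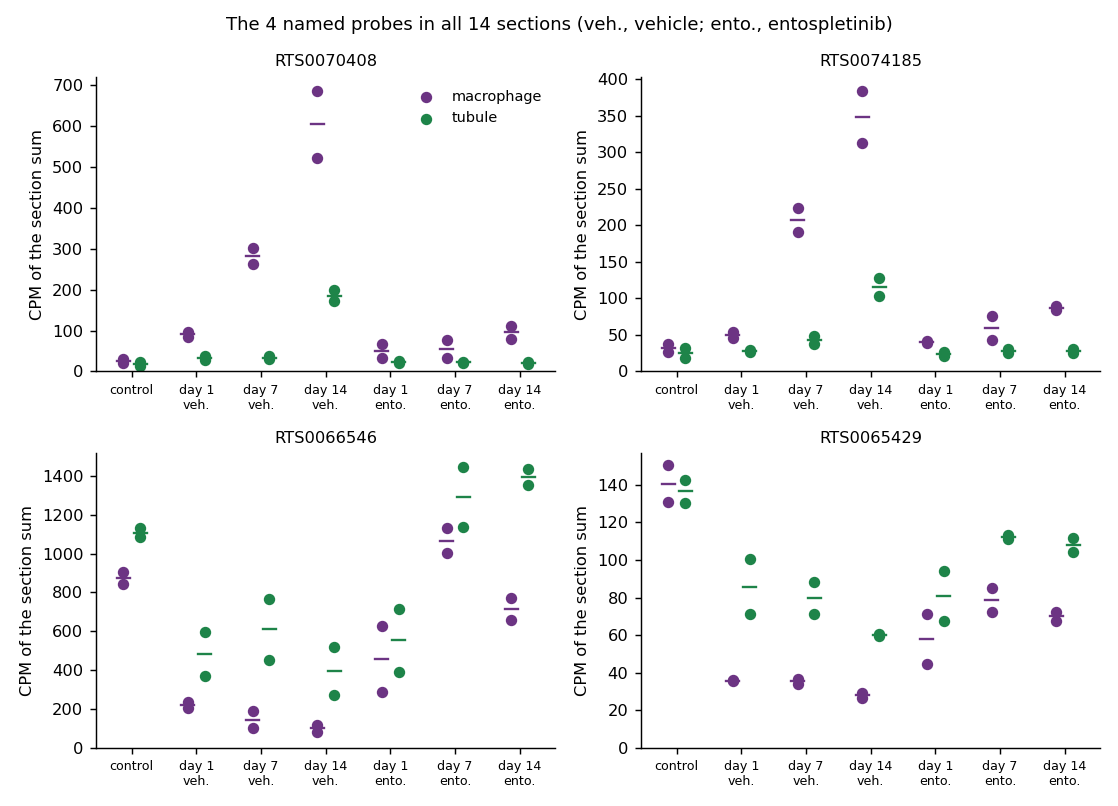
CPM (y axis) of the 4 named probes in the sums of all 14 sections, for macrophages and tubules in the control group and in the vehicle and entospletinib groups on days 1, 7, and 14. Each point is 1 section and each bar the mean of 2. RTS0070408 reached a mean of 604 CPM and RTS0066546 a mean of 100 CPM in macrophages on day 14 with vehicle.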

How the data were processed

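The authors deposited, for each GeoMx segment, raw counts of UMIs per probe. The GeoMx NGS Pipeline (3.1.1.5 per the file headers) had produced them, before their filtering and upper quartile normalization. The submitters' processing notes also name R 4.3.1. Probes carry identifiers alone. Section prefixes, groups, and regions were read from sample titles. Regions of a section were added up, and probes with 20 or more counts over the 12 segments were kept (20166, with 9 left out). The 14 macrophage sums of 7 groups, which shared 1 estimate of the spread, were scaled by their upper quartile, then fitted in edgeR 4.0.16 (quasi-likelihood, robust, R 4.3.3) with Benjamini-Hochberg adjustment. Calls required both an adjusted p below 0.05 and a log2 fold change beyond 1 in either direction. Differences of effects, from models with the section as a term, required only the former. SE was the size of the log2 fold change over the square root of F. CPM are counts divided by the segment or section total, without the upper quartile. Totals per section limit precision to the ranges given in the text, and intervals or floors from counts cover counting error only.

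For naming, the smallest p in each direction (2 probes each) was taken among called probes that did not overlap between sections and kept their sign in cortex and medulla. Marker and pathway lists needed gene names and were not used. Members, lists, and tests were chosen with earlier results of these data known. Alternatives were TMM, total-count scaling, DESeq2 1.42.0, limma 3.58.1, other filters, fits of 4 sums, a block, single regions, thinning, and leaving out segments or sections. The 2 samples that the study excluded as outliers are not named, so none was left out. Figures were drawn with matplotlib 3.10.9 in Python 3.11.15.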

Additional observations from a re-analysis of the deposited data

Results flagged for a closer look

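Differences were examined in 22 groups of 6 segments for 1 segment standing apart, which chance gives in about 1 of 20 groups. The tubule-high share of the medullary segment of control section 1 was 4.92%, and its gap to the next segment was 0.664 of the range of the control group. The CPM of RTS0070408 in 1 cortical segment of the same section was 74.8, with a gap of 0.654 of the range, and it rested on 2 counts.

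The effect of injury was called as different between medulla and cortex for 3 probes and between macrophages and tubules for 15 probes. These calls came from edgeR's test of the difference itself with Benjamini-Hochberg adjustment. Both sets of calls changed when single sections were left out.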

How the results depend on the processing

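The 648 calls between day 7 and control ranged from 440 to 825 under the 12 alternatives that gave a similar count, so that choice sets the range. Of the 648, 590 were shared with TMM normalization and 500 with regions as replicates in DESeq2. Only 417 were shared with limma-voom on regions and 379 with equal weight per segment. The count was 618 with TMM normalization (241 higher, 377 lower) and 637 with scaling by totals, which was chosen after seeing the data (284 and 353). It was 528 with DESeq2 (of 6482 probes with an adjusted p) and 795 with regions as replicates in DESeq2. It fell to 343 with cortex alone and to 342 after thinning to 117685 counts, where 4253 probes could be tested, and ranged from 195 to 382 with 1 section left out, each lone section being assumed to vary like the other groups. The median of all probes was 0.38 with equal weight per segment and -0.23 with limma-voom on regions, and fold changes there are relative to it. Calls of the difference between regions (3) ranged from 0 to 2 with 1 section left out, those of the difference between compartments (15) from 6 to 11, those of day 7 against day 1 (279) from 97 to 191, and those of day 14 against day 7 (36) from 9 to 32. All 4 named probes kept their direction under 18 alternatives, and 71 of 72 values stayed past the threshold. The exception was RTS0065429 after thinning (-1.61, adjusted p = 0.0637, edgeR). These probes had been chosen for a small p and for the same direction in cortex and medulla. That choice fixes part of their stability, which is therefore no independent test. The median of the macrophage-high probes ranged from 0.92 to 1.64 and that of the tubule-high probes from -1.96 to -0.87. The causes were not tested.

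Under each prefix, the region numbers in the titles run on from group to group, and the labels do not say what a prefix stands for. Deviations of same-numbered sections of the 2 groups had a correlation across probes of -0.09, and 21 pairs of groups ranged from -0.10 to 0.28. These values do not decide whether sections with the same prefix were handled together. With the prefix as a block, 752 probes were called, of which 641 were shared with the 648.

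Depth limits the control group most, whose sections held 159453 and 298063 counts and whose probes had a median of 13. With 2 sections per group, low probes and differences of effects are poorly resolved.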
